A study of Drosophila melanogaster with 8 samples.

Results

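Apoptosis genes were followed in S2 cells, cultured Drosophila melanogaster cells of haemocyte (blood cell) character that were first grown from embryos, after knockdown of the translation factor DENR. The group was chosen by name and holds 9 listed genes: the death inducers hid, rpr and grim, the caspases Dronc, Drice and Dcp-1, the adaptor Dark and the inhibitors Diap1 and Diap2. Of these, 5 had a probe set assigned to that gene alone (Dark, Dronc, Dcp-1, Diap2 and grim), out of 11982 genes named in this way on the array. The other 4 (Drice, Diap1, hid and rpr) were not analysed here. Because no sequences were used here, probe sets are named by their gene only.

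In the fly, an inhibitor of apoptosis protein keeps caspases silent in living cells. The death inducers reaper, hid and grim bind the inhibitors and release the caspases. Dark, the fly counterpart of mammalian Apaf-1, assembles into a ring on which Dronc, the initiator caspase, is activated, and Dronc then cleaves the effector caspases Drice and Dcp-1. S2 cells have been a standard system for this pathway, because removal of Diap1 or expression of a death inducer kills them through Dronc and Dark.

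The study holds 8 arrays in 4 groups of 2: RNA of the 80S and polysome fractions (called translated RNA) from cells given double-stranded RNA (dsRNA) against DENR, the same RNA from cells given dsRNA against GFP, total RNA from cells given DENR dsRNA, and total RNA from cells given GFP dsRNA. All cells carried the wild-type genotype, and the GFP dsRNA, whose target is not a fly gene, served as the control. Both samples of a group are biological replicates according to the series' design text. DENR acts with MCTS1 in re-initiation of translation after short upstream reading frames. The cells are 1 cultured line, and neither the length of the treatment nor the dose of dsRNA is stated in the labels. Values are log2 signals, from 0.83 to 12.88 over all arrays, and array medians ran from 2.32 to 2.48. With so few arrays, their number sets the precision.

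The labels were checked first. DENR had log2 signals of 5.40 and 4.46 on the DENR dsRNA translated arrays against 8.41 and 8.26 on the GFP dsRNA translated arrays, and of 7.38 and 7.60 against 8.28 and 8.18 in total RNA. It fell in translated RNA (-3.40 ± 0.25, adjusted p = 0.000203 by limma) and was lower without passing the test in total RNA (-0.74 ± 0.25, adjusted p = 0.170). All 8 haemocyte markers examined were above the filter on dim features, with a mean log2 signal of 6.90 to 6.94 on DENR dsRNA and 8.05 to 8.09 on GFP dsRNA translated arrays, and of 6.15 to 6.42 on DENR dsRNA and 7.20 to 7.32 on GFP dsRNA total arrays. Of these markers 4 of 8 (He, Hml, NimC1 and Sr-CI) were called lower with DENR dsRNA by limma in each fraction. Over all features 1.58% were called in total RNA and 1.34% in translated RNA, in either direction. The other 4 were not called in either fraction. Of them srp, Col4a1 and eater were lower in both, and Pxn differed by 0.19 in total RNA and by -0.22 in translated RNA. The part of the haemocyte markers in the results below was not tested. The muscle markers were below the filter (0 of 2 kept). The neuron markers (3 of 3 kept) had a mean of 2.79 to 2.98 on DENR dsRNA and 2.81 to 2.91 on GFP dsRNA translated arrays, and of 3.19 to 3.37 on DENR dsRNA and 3.24 to 3.47 on GFP dsRNA total arrays. The germline markers (2 of 4 kept) had 3.67 to 3.78 and 3.54 to 3.80 in translated RNA, and 3.76 to 3.80 and 3.51 to 3.71 in total RNA, DENR dsRNA before GFP dsRNA. The fat body markers (2 of 3 kept) had 2.28 to 2.32 and 2.12 to 2.31 in translated RNA, and 2.04 to 2.26 and 2.16 to 2.49 in total RNA, in the same order. The germline mean hides unlike members: aub read 7.82 to 8.45 over the 8 arrays and bam 2.38 to 3.23, whereas vas and nanos were below the filter. The part of all these markers in the results was not tested. The first DENR dsRNA total array stood apart from its mate, at 9.0 on a first principal component that held 65.8% of the variance, against 27.3 for the second DENR dsRNA total array and 29.6 and 35.1 for the GFP dsRNA total arrays. The translated arrays lay between -29.4 and -22.3 on it. Differences of single apoptosis genes that rest on that array are given with and without it, or as ranges over single arrays left out.

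Of the 5 apoptosis genes, 4 were bright enough to be tested, the exception being grim. No member passed the test between DENR and GFP dsRNA in either fraction. One member, Dark, was higher in translated than in total RNA, after both treatments. In the sentences that follow, differences are on the log2 scale, errors are moderated standard errors (SE, n = 2 per group), and calls were made by a limma fit of all 8 arrays where the p adjusted over 10262 features by Benjamini-Hochberg was under 0.05.

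**Figure D1:**
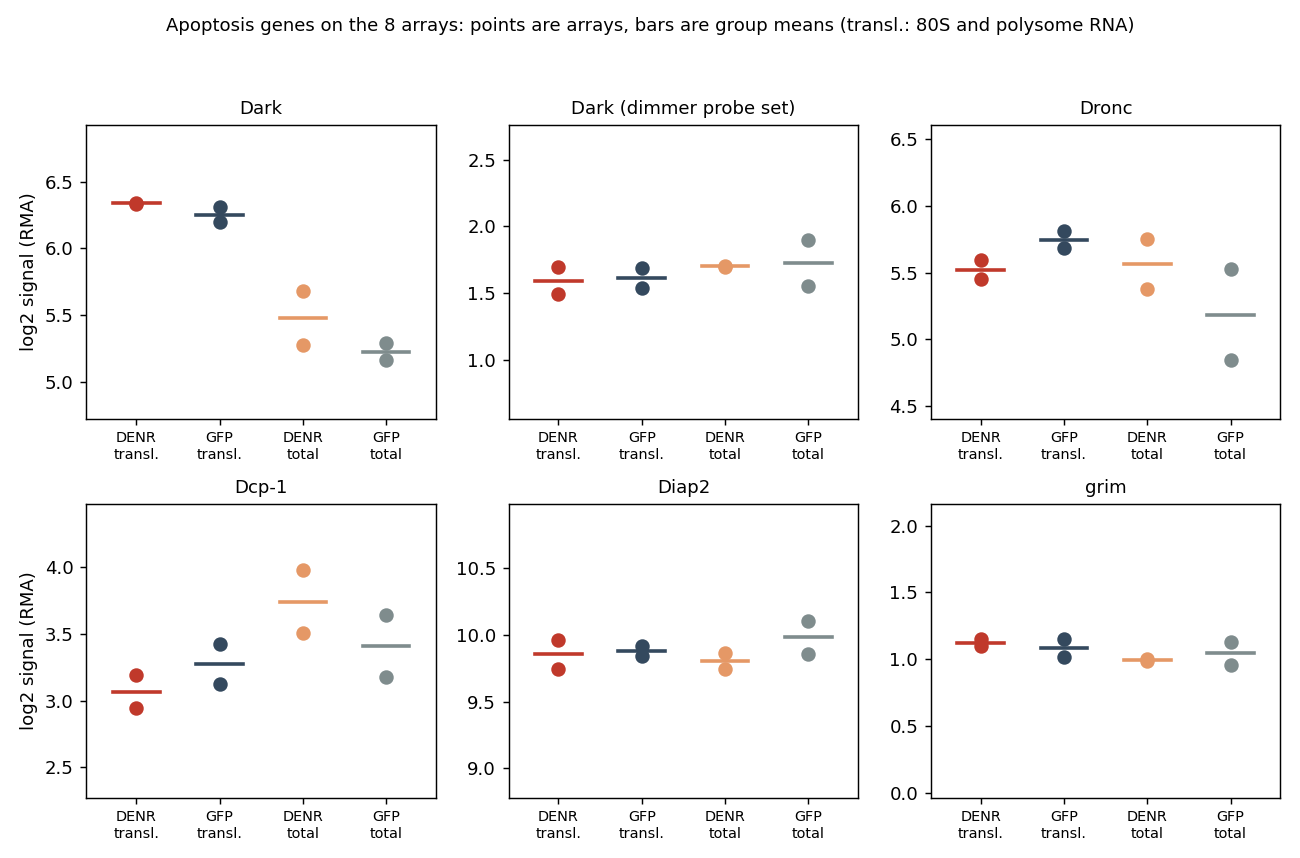
Log2 signal (vertical axis) of each apoptosis gene on each of the 8 arrays, by group, with one panel per probe set; points are arrays, horizontal bars are group means, and every panel spans the same range of log2 units. The translated arrays of Dark lie between 6.20 and 6.34, all above the total arrays, which reach 5.68; the dimmer probe set of Dark and grim stay below 2 on all arrays.

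Among the death inducers only grim had a probe set of its own here. It had log2 signals of 1.151 and 1.095 on the DENR dsRNA translated arrays against 1.017 and 1.154 on the GFP dsRNA translated arrays, and of 0.997 and 0.987 on the DENR dsRNA total arrays against 0.954 and 1.130 on the GFP dsRNA total arrays. All of these are far below 2.12, the lowest mean kept by the filter, and only 8 of 17104 features had a lower mean. The treatments differed by 0.04 in translated RNA and by -0.05 in total RNA, given here without a test. Translated minus total RNA was 0.13 after DENR dsRNA, where both translated arrays were above both total arrays. It was 0.04 after GFP dsRNA, with overlapping arrays, and neither was tested. At this signal a difference in grim was not detectable. Its relative skl (sickle), a death inducer encoded beside rpr and grim, was also below the filter, between 1.48 and 1.83 on the 8 arrays; it is named here after its values were seen.

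Dark, the adaptor, had log2 signals of 6.34 and 6.33 on the DENR dsRNA translated arrays and 5.68 and 5.27 on the DENR dsRNA total arrays. With GFP dsRNA it had 6.20 and 6.31 on the translated arrays and 5.29 and 5.16 on the total arrays. All 4 translated arrays were above all 4 total arrays. Translated RNA exceeded total RNA 1.82-fold after DENR dsRNA (0.86 ± 0.16, 95% interval 0.51 to 1.21, adjusted p = 0.00558 by limma). After GFP dsRNA it exceeded it 2.04-fold (1.03 ± 0.16, 95% interval 0.68 to 1.37, adjusted p = 0.00109 by limma). Because each array was scaled to one distribution, this is a level relative to other transcripts of the fraction and not a share of Dark molecules on ribosomes. Without the first DENR dsRNA total array the difference after DENR dsRNA was 1.06 ± 0.16.

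The array holds a dimmer probe set for Dark, and it did not show this difference. It read 1.49 and 1.69 on the DENR dsRNA translated arrays and 1.70 and 1.70 on the DENR dsRNA total arrays, and 1.54 and 1.69 on the GFP dsRNA translated arrays and 1.90 and 1.55 on the GFP dsRNA total arrays. Its difference between translated and total RNA was -0.11 ± 0.15 after either dsRNA. These signals lie below the filter level of 2.12. Every value of Dark below comes from the brighter probe set.

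Between treatments Dark differed little. In translated RNA the DENR dsRNA arrays were both above the GFP dsRNA arrays, by 0.09 ± 0.16 (95% interval -0.26 to 0.43, adjusted p = 0.889 by limma). In total RNA the groups overlapped, with a difference of 0.25 ± 0.16 (95% interval -0.10 to 0.60, adjusted p = 0.432 by limma). That difference came mainly from the first DENR dsRNA total array and was 0.05 ± 0.16 without it. The interval in translated RNA leaves room for a rise of up to 1.35-fold and a fall to 0.834 of the control.

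Dronc, the initiator caspase that Dark activates, had log2 signals of 5.45 and 5.59 on the DENR dsRNA translated arrays against 5.81 and 5.68 on the GFP dsRNA translated arrays. In total RNA it had 5.75 and 5.38 with DENR dsRNA against 5.53 and 4.84 with GFP dsRNA. The translated arrays of the treatments did not overlap, DENR dsRNA being lower, whereas the total arrays did, the second GFP dsRNA total array being the lowest of all 8. Neither difference passed the test: -0.22 ± 0.22 in translated RNA (95% interval -0.71 to 0.26, adjusted p = 0.752 by limma) and 0.38 ± 0.22 in total RNA (95% interval -0.11 to 0.86, adjusted p = 0.395 by limma). Without the first DENR dsRNA total array the difference in total RNA was 0.19 ± 0.25. It was 0.72 without the first GFP dsRNA total array and 0.04 without the second.

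Translated against total RNA, Dronc differed by -0.04 ± 0.22 after DENR dsRNA (95% interval -0.53 to 0.44, adjusted p = 0.932 by limma). Without the first DENR dsRNA total array Dronc differed by 0.14. After GFP dsRNA it differed by 0.56 ± 0.22 (95% interval 0.08 to 1.05), and both translated arrays were above both total arrays, but the limma test was missed (adjusted p = 0.0789). This value turned on the GFP dsRNA total arrays, which were far apart. Without the first of them it was 0.90 ± 0.22 and called (adjusted p = 0.0109), and without the second it was 0.22 ± 0.22.

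Dcp-1, an effector caspase, had the lowest signals of the tested members. Its mean log2 signal was 3.37, against a filter level of 2.12, and 60.85% of features were dimmer. It read 2.94 and 3.19 on the DENR dsRNA translated arrays against 3.12 and 3.42 on the GFP dsRNA translated arrays, and 3.98 and 3.50 against 3.64 and 3.18 in total RNA. The treatments overlapped in both fractions, with differences of -0.20 ± 0.21 in translated RNA (adjusted p = 0.770 by limma) and 0.33 ± 0.21 in total RNA (adjusted p = 0.437 by limma). Without the first DENR dsRNA total array the difference in total RNA was 0.10 ± 0.23.

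After DENR dsRNA both translated arrays of Dcp-1 were below both total arrays. The difference was -0.68 ± 0.21 (95% interval -1.15 to -0.20), close to the threshold but not past it (adjusted p = 0.0591 by limma). After GFP dsRNA the arrays overlapped, with a difference of -0.14 ± 0.21 (adjusted p = 0.671 by limma). The value after DENR dsRNA rested on the DENR dsRNA total arrays: it was -0.44 ± 0.23 without the first and -0.91 without the second, when it was called (adjusted p = 0.0348 by limma). It was also called without either GFP dsRNA total array, at the same size (adjusted p = 0.0458 by limma for both).

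Diap2, an inhibitor of apoptosis protein that also acts in the IMD immune pathway, was the steadiest member, with a standard deviation of 0.119 over the 8 arrays against 0.305 to 0.527 for the other 3 members tested. It read 9.96 and 9.74 on the DENR dsRNA translated arrays against 9.92 and 9.84 on the GFP dsRNA translated arrays, and 9.74 and 9.87 against 10.11 and 9.86 in total RNA. The treatments overlapped in both fractions. The differences were -0.03 ± 0.15 in translated RNA (95% interval -0.35 to 0.30, adjusted p = 0.968 by limma) and -0.18 ± 0.15 in total RNA (95% interval -0.50 to 0.15, adjusted p = 0.548 by limma). With single arrays left out the difference in total RNA ran from -0.30 to -0.05. Translated against total RNA, Diap2 differed by 0.05 ± 0.15 after DENR dsRNA and by -0.10 ± 0.15 after GFP dsRNA, with overlapping arrays in both. In a pool of cells, less transcript per cell and fewer cells holding it cannot be told apart.

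**Figure D2:**
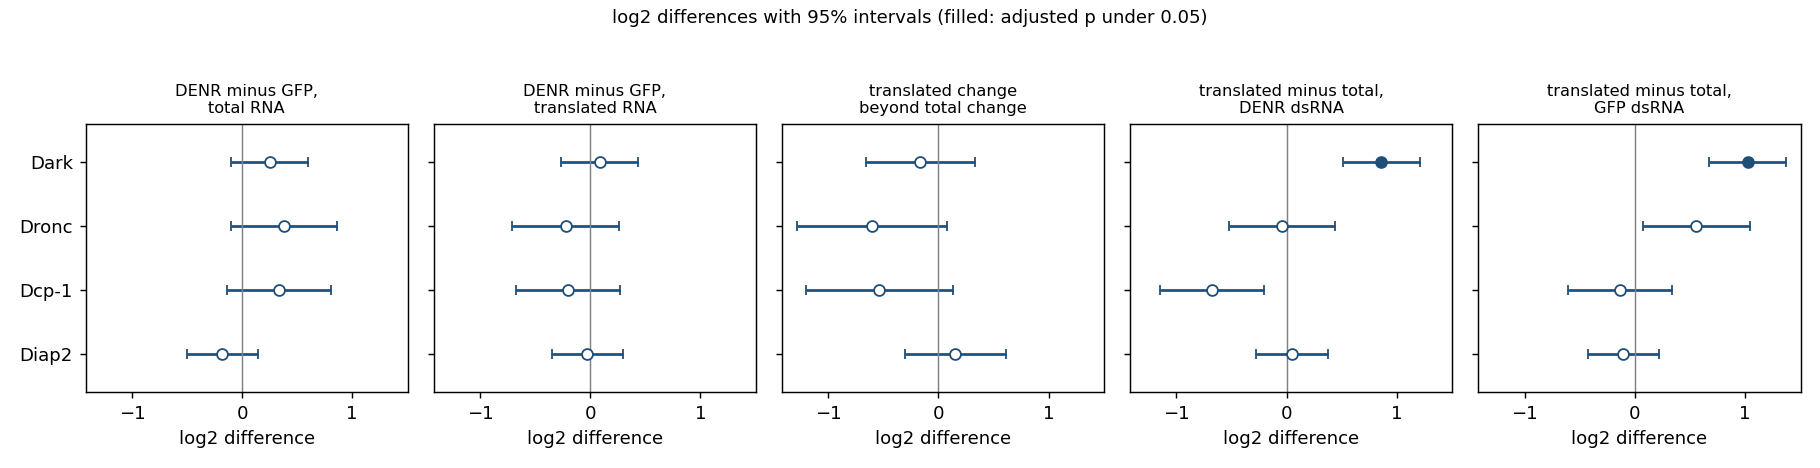
Log2 differences of the 4 tested apoptosis genes (horizontal axis) in 5 comparisons, with 95% intervals from the limma fit; filled points passed the test at an adjusted p under 0.05. The only filled points are those of Dark in translated against total RNA, at 0.86 after DENR dsRNA and 1.03 after GFP dsRNA.

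Counted over the 4 tested members, 0 of 4 were called between the treatments in total RNA, where 1.58% of all features were called, and 0 of 4 in translated RNA, where 1.34% were. At an unadjusted p under 0.05 in the same limma fit, 0 of 4 passed in total RNA (17.6% of all features) and 0 of 4 in translated RNA (13.2% of all features). The arrays of the treatments did not overlap for 0 of 4 members in total RNA (46.0% of all features) and for 2 of 4 in translated RNA (47.1% of all features), with Dark higher and Dronc lower. The median difference of the members was 0.29 in total RNA, against 0.02 over all features, and -0.12 in translated RNA, against 0.00 over all features (-0.003). The median in total RNA leaned on the first DENR dsRNA total array. Without that array the differences of Dark, Dronc and Dcp-1 were all smaller, as given above. Counts over so few genes are coarse beside these shares.

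The comparison of the fractions called 1 of 4 members, Dark, after DENR dsRNA, where 15.0% of all features were called, 9.13% higher and 5.85% lower. After GFP dsRNA it also called 1 of 4, again Dark, where 29.6% of all features were called, 18.7% higher and 11.0% lower. Arrays of the fractions did not overlap for 2 of 4 members after DENR dsRNA (55.8% of all features) and for 2 of 4 after GFP dsRNA (65.2% of all features). Dark was thus among a large set of transcripts that differed between the fractions.

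Ribosome loading was then compared, as the change with DENR dsRNA in translated RNA beyond that in total RNA. This comparison called 0 of 4 members and 0% of all features by limma, and at an unadjusted p under 0.05 it passed 0 of 4 members and 9.96% of all features. It had little power for small changes. In simulated data it recovered 13% of log2 changes of 1, against 65% to 74% in the other comparisons, and 91.5% of changes of 2. DENR itself was not called in it, at -2.66 ± 0.355 (adjusted p = 0.101 by limma). The absence of calls therefore does not show that loading was unchanged. Both caspases had negative values, -0.60 ± 0.31 for Dronc (95% interval -1.29 to 0.08, adjusted p = 0.518 by limma) and -0.54 ± 0.30 for Dcp-1 (95% interval -1.20 to 0.13, adjusted p = 0.529 by limma). Dark had -0.16 ± 0.22 (95% interval -0.66 to 0.33) and Diap2 0.15 ± 0.21 (95% interval -0.31 to 0.61). Without the first DENR dsRNA total array these values were -0.42 for Dronc, -0.30 for Dcp-1, 0.04 for Dark and 0.09 for Diap2. Without the second they were -0.79 for Dronc, -0.78 for Dcp-1, -0.36 for Dark and 0.21 for Diap2. Dronc had -0.95 without the first GFP dsRNA total array and -0.26 without the second, Dcp-1 had -0.77 and -0.30, and Diap2 had 0.03 and 0.28. The intervals of the caspases thus allow a loading as low as 0.409 of the control for Dronc and 0.434 for Dcp-1, and as high as 1.06 and 1.09. The loading value uses the same arrays as the other comparisons and adds no independent measurement to them.

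The transcripts whose levels followed those of Dark most closely were sought next, since Dark varied most among the tested members. Over the 8 arrays and among 8163 other named genes, the highest Pearson correlations with Dark were those of CG8195 (r = 0.998), CtIP (r = 0.997), the counterpart of a DNA end resection factor, and Ars2 (r = 0.997), which acts in RNA processing with the cap-binding complex. Ars2 read 7.56 and 7.69 on the DENR dsRNA translated arrays, 7.49 and 7.65 on the GFP dsRNA translated arrays, 6.44 and 5.44 on the DENR dsRNA total arrays and 5.58 and 5.39 on the GFP dsRNA total arrays. As with Dark, the first DENR dsRNA total array was the highest of the total arrays. All 3 genes share the split between the fractions and the same 8 arrays with Dark, and 461 genes had an r above 0.95, so that the likeness is a description only.

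The rest of the cell death machinery was described from a list of 34 other genes, of which 28 were on the array and 21 passed the filter. In total RNA 0 of 21 were called between the treatments by limma, where 1.58% of all features were. At an unadjusted p under 0.05, 5 passed (17.6% of all features), and the median was 0.18 against 0.02 over all features. In translated RNA 1 rose, 1 fell and 19 did not pass, where 1.34% of all features were called, with a median of -0.01. At an unadjusted p under 0.05 in the same fit, 3 of 21 passed there (13.2% of all features). HtrA2, a mitochondrial protease released in apoptosis, read 4.94 and 4.67 on the DENR dsRNA against 4.07 and 3.83 on the GFP dsRNA translated arrays. It rose by 0.85 ± 0.16 (adjusted p = 0.0311 by limma). In total RNA HtrA2 read 4.86 and 5.08 against 4.34 and 4.26, a difference of 0.67 that missed the test (adjusted p = 0.0655 by limma). BI-1, the fly Bax inhibitor of the endoplasmic reticulum, read 8.10 and 8.12 on the DENR dsRNA against 9.05 and 8.72 on the GFP dsRNA translated arrays. It fell by 0.77 ± 0.15 in translated RNA (adjusted p = 0.0365 by limma), and in total RNA it differed by -0.43 (adjusted p = 0.174 by limma). A dimmer probe set of BI-1, with a mean of 2.01, lay below the filter level. It gave -0.39 ± 0.14 in translated RNA (adjusted p = 0.327 by limma) and -0.23 ± 0.14 in total RNA. Both calls ended when any 1 of the 4 translated arrays was left out, with adjusted p between 0.106 and 0.275 for HtrA2 and between 0.0921 and 0.265 for BI-1, and that of BI-1 ended with array medians centred (adjusted p = 0.0620). In ribosome loading 0 of 21 were called by limma, and 4 passed at an unadjusted p under 0.05, where 9.96% of all features did. The smallest p values there were those of Dredd, an initiator caspase of the IMD pathway (0.52, adjusted p = 0.480 by limma), and of wgn, a receptor of the tumour necrosis factor Eiger (-0.82, adjusted p = 0.480 by limma).

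Between the fractions more of these genes were called. After DENR dsRNA 3 of 21 were higher in translated RNA, 2 were lower and 16 did not pass, where 9.13% of all features were higher and 5.85% lower, with a median of 0.04 against -0.02 over all features. After GFP dsRNA 6 were higher, 4 lower and 11 did not pass, where 18.7% of all features were higher and 11.0% lower, with a median of 0.14 against -0.04. Drep4, a nuclease of the DNA fragmentation factor family, was higher by 1.21 ± 0.21 after DENR dsRNA and by 1.20 ± 0.21 after GFP dsRNA. Its arrays read 5.60 and 5.62 against 4.75 and 4.06 after DENR dsRNA, and 5.42 and 5.44 against 4.10 and 4.35 after GFP dsRNA, translated before total RNA.

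Eiger (egr), the fly tumour necrosis factor, read 7.88 and 8.00 on the translated against 7.16 and 6.31 on the total arrays after DENR dsRNA, and 8.23 and 8.64 against 6.44 and 6.39 after GFP dsRNA. It was higher in translated RNA by 1.21 ± 0.25 after DENR dsRNA and by 2.02 ± 0.25 after GFP dsRNA, and the difference between these values was not called in ribosome loading (-0.82 ± 0.35, adjusted p = 0.487 by limma). A dimmer probe set of egr gave 0.01 after DENR dsRNA and 1.06 after GFP dsRNA. Det (deterin, the fly survivin) was higher by 0.56 ± 0.14 after DENR dsRNA and by 0.85 ± 0.14 after GFP dsRNA.

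Dredd and morgue stood lower in translated RNA after both treatments. Dredd read 6.89 and 6.78 on the translated against 7.56 and 7.72 on the total arrays after DENR dsRNA, and 6.54 and 6.83 against 8.04 and 7.98 after GFP dsRNA. Its differences were -0.80 ± 0.15 after DENR dsRNA (adjusted p = 0.00553 by limma) and -1.32 ± 0.15 after GFP dsRNA (adjusted p = 0.000204 by limma). Morgue, which promotes the loss of Diap1, differed by -0.55 ± 0.13 after DENR dsRNA and by -0.96 ± 0.13 after GFP dsRNA, and both were called. Dredd thus lay on the other side of the fraction comparison from Dark, but the caspase genes did not share a side. Strica, a caspase gene of this list, was called higher after GFP dsRNA (0.51 ± 0.15, adjusted p = 0.03 by limma) and not after DENR dsRNA (0.14 ± 0.15). It is named here after its values were seen, and its call was not examined without single arrays. Dronc and Dcp-1 were not called after either dsRNA. BI-1, called higher by 0.60 ± 0.15 after GFP dsRNA, was not called after DENR dsRNA. The dimmer probe set of BI-1, below the filter level, did not show this difference after GFP dsRNA (-0.10 ± 0.14, adjusted p = 0.731 by limma).

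**Figure D3:**
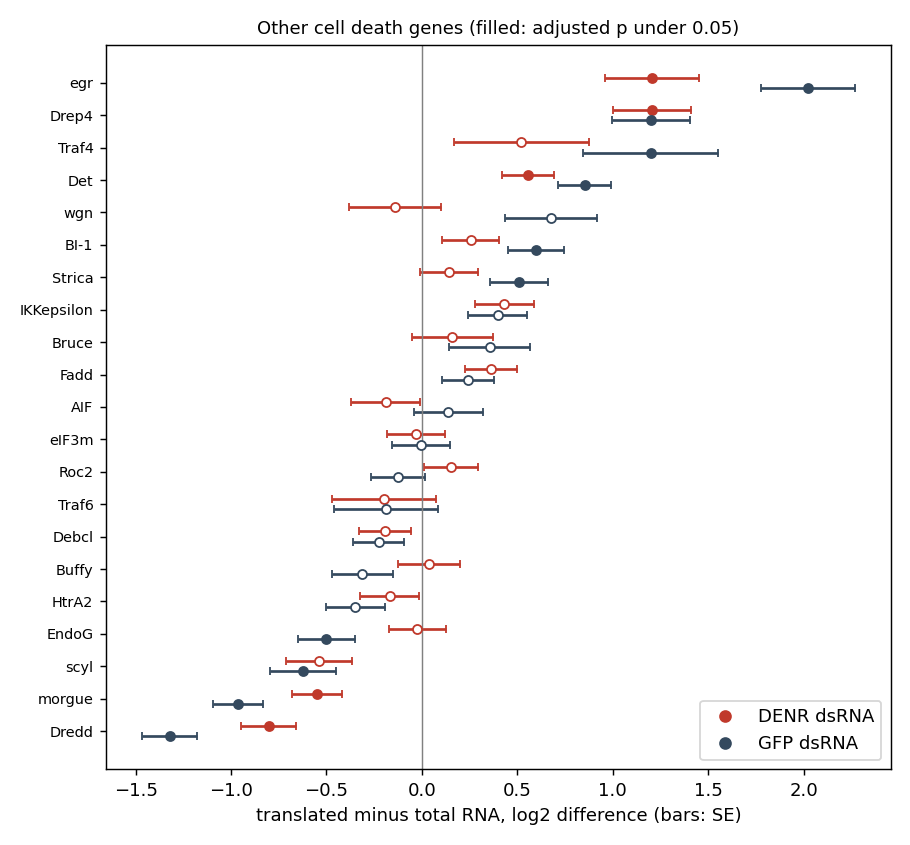
Translated minus total RNA on the log2 scale (horizontal axis, bars are SE) for the 21 tested cell death genes outside the apoptosis group, after DENR dsRNA (red) and GFP dsRNA (dark blue); filled points passed the test. After GFP dsRNA egr stands highest at 2.02 and Dredd lowest at -1.32, and both keep their side after DENR dsRNA, at 1.21 and -0.80.

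Single arrays decided part of these calls. After GFP dsRNA the calls of Dredd, egr, morgue, Det and Drep4 were kept without any single array, and that of BI-1 ended without the second GFP dsRNA total array (adjusted p = 0.0789 by limma) or the first GFP dsRNA translated array (adjusted p = 0.105 by limma). After DENR dsRNA the call of Drep4 was kept without any single array. Those of egr, Det and morgue ended without either DENR dsRNA translated array (adjusted p between 0.0554 and 0.162 by limma), those of Det and morgue also without the second DENR dsRNA total array (adjusted p = 0.102 and 0.113), and that of Dredd without the second DENR dsRNA translated array (adjusted p = 0.0519). Sizes after DENR dsRNA also turned on the total arrays. Without the first DENR dsRNA total array egr differed by 1.63 and Drep4 by 1.55, and without the second by 0.78 and 0.86. The call of Det after DENR dsRNA also ended with the culture as a random block (adjusted p = 0.0506).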

How the data were processed

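RNA of S2 cells was measured on 8 oligonucleotide arrays. The authors deposited 1 log2 signal for each probe set; the submitters' processing notes name RMA, with no version or settings, and the log2 scale was read from the range of the values. RMA in general scales arrays to one distribution, so a shift shared by most transcripts is lost. Of 18952 probe sets, 183 controls were left out. Symbols came from a probe-to-gene table and were updated by gene identifier through RefSeq (Release 6). The brightest probe set of a gene by mean over the 8 arrays was used, and the brightest 60% of 17104 features were kept (10262). Group means of the 4 groups were fitted to all 8 arrays with limma 3.58.1 in R 4.3.3, without covariates, with two-sided p-values, Benjamini-Hochberg adjustment over all features and calls at 0.05, so that the spread is pooled over groups and moderated across genes. The fit was tested on simulated data.

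Members, lists and tests were chosen with earlier results of these data known. Named genes are all members, list genes called (up to 6 per list and comparison, smallest p first) or, where none was, the 2 of smallest p, DENR, and the 3 genes most like the member that varied most. The list genes skl and Strica were added after their values were seen. The alternatives changed the model (a replicate block, a random block for culture, an intensity trend with robust prior, only the arrays compared), the features (no filter, the brightest 40%, all probe sets), the scaling (array medians centred, cyclic loess, quantile normalization by fraction) or left out 1 array each. A crossed replicate block was chosen after seeing the data. Matplotlib 3.10.9 drew the figures.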

Additional observations from a re-analysis of the deposited data

How the results depend on the processing

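With the 18 or 19 alternatives run per comparison, 0 of 4 members were called between the treatments or in ribosome loading in every one. The count of 1 member called between the fractions became 2 with the crossed replicate block after both dsRNAs (Dcp-1 joined after DENR dsRNA, adjusted p = 0.00318, and Dronc after GFP dsRNA, adjusted p = 0.0292 by limma), and 2 after DENR dsRNA with the intensity trend and robust prior. With single arrays left out it ran from 1 to 2 after both. The call of Dark ended, and its sign turned, only on its dimmer probe set, at -0.11 after DENR dsRNA and -0.11 after GFP dsRNA. On the brighter one it ran from 0.66 to 1.06 after DENR dsRNA and from 0.96 to 1.09 after GFP dsRNA without single arrays.

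Small differences that had missed the test turned sign. On the dimmer probe set Dark read -0.027 in total RNA, -0.020 in translated RNA and 0.007 in loading; its loading was 0.043 with quantile normalization by fraction and ran from -0.365 to 0.037 without single arrays. Diap2 in translated RNA was 0.009 with cyclic loess and 0.051 with quantile normalization by fraction, and ran from -0.136 to 0.084 without single arrays; its translated minus total difference ran from -0.060 to 0.160 after DENR dsRNA and from -0.227 to 0.022 after GFP dsRNA. Dronc after DENR dsRNA, translated minus total, was 0.002 with array medians centred and 0.058 with quantile normalization by fraction, and ran from -0.229 to 0.144. Dcp-1 after GFP dsRNA ran from -0.370 to 0.097. The cause was not tested.

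The same-numbered arrays deviated together within a fraction (correlations 0.274 in translated and 0.379 in total RNA) and oppositely between fractions (-0.379 to -0.203), so the numbers were not taken as pairs between fractions. The main fit did not pair them within a fraction either. The crossed block, chosen after seeing the data, allowed for both patterns. The replicate block gave 0 members called between the treatments and 1 between the fractions after each dsRNA, and Dark kept 0.86 and 1.03. Over all features, 138 were called between the treatments in translated RNA and 162 in total RNA; the replicate block gave 95 and 116 and the crossed block 413 and 903. Without single arrays these counts ran from 23 to 212 and from 39 to 497. The signal of grim lay below the filter, so that no difference in it was detectable.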

Other observations

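Engulfment genes, which act in the clearance of dying cells, were examined on 8 genes present on the array of 12 listed. In total RNA 1 of 8 was called by limma, where 1.58% of all features were, and 3 of 8 passed at an unadjusted p under 0.05 (17.6% of all features). The gene called was NimC4 (simu), a receptor for apoptotic cells. It fell to 3.06 and 3.01 with DENR dsRNA against 4.42 and 4.43 with GFP dsRNA (-1.39 ± 0.21, adjusted p = 0.0110 by limma). This call ended without the first or the second GFP dsRNA total array (adjusted p = 0.0502 and 0.0863 by limma). In translated RNA 0 of 8 were called by limma, where 1.34% of all features were. There NimC4 differed by -0.06, Ced-12 by -0.17 and the receptor Draper (drpr) by -0.57 (adjusted p = 0.319 by limma for drpr). At an unadjusted p under 0.05, 1 of 8 passed, where 13.2% of all features did. In ribosome loading 0 of 8 were called and 2 passed unadjusted (9.96% of all features), NimC4 at 1.33 and pall (pallbearer) at -0.61. Between the fractions 0 of 8 were called after DENR dsRNA, where 15.0% of all features were, with ced-6 at -0.60 (adjusted p = 0.0584 by limma) and drpr at -0.60 nearest. That count ran up to 2 over the 19 alternatives, and ced-6 was called in 6 of them, with an adjusted p as low as 0.0256. Ced-6 had -0.37 without the first DENR dsRNA total array and -0.83 without the second, where it was called (adjusted p = 0.0294 by limma). After GFP dsRNA 2 of 8 were called higher in translated RNA, pall (0.87) and Ced-12 (0.93), and 1 was called lower, NimC4 (-1.19). Over all features 18.7% were called higher there and 11.0% lower. The call of Ced-12 ended without the second GFP dsRNA translated array (adjusted p = 0.0636).

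Among 13 tested regulators of hid, rpr and grim, 0 were called between the treatments in total RNA, in translated RNA or in ribosome loading by limma. Over all features 1.58%, 1.34% and 0% were called, in the same order. At an unadjusted p under 0.05, 5 passed in total RNA (17.6% of all features), 4 in translated RNA (13.2%) and 1 in loading (9.96%). The nearest were yki (0.63) and br (0.60) in total RNA, nej (0.58) and br (-0.53) in translated RNA, and br (-1.13) and yki (-0.33) in loading. These values of br come from the brightest of its 5 probe sets, and the others read from -0.31 to 0.18 in total RNA, from -0.23 to 0.19 in translated RNA and from -0.27 to 0.19 in loading. A dimmer probe set of nej, with a mean of 1.97 below the filter level, gave 0.04 ± 0.15 in translated RNA. Between the fractions 2 of 13 were called higher in translated RNA and 2 lower after DENR dsRNA, where 9.13% of all features were higher and 5.85% lower. After GFP dsRNA 3 were called higher and 1 lower, where 18.7% of all features were higher and 11.0% lower. Stat92E, the transcription factor of the JAK-STAT pathway, was higher by 1.65 ± 0.30 after DENR dsRNA and 2.14 ± 0.30 after GFP dsRNA. It kept both calls without any single array. After DENR dsRNA it differed by 2.22 without the first DENR dsRNA total array and by 1.07 without the second. Jra, the fly Jun, was lower, at -0.54 after DENR dsRNA and -0.59 after GFP dsRNA. After DENR dsRNA EcR (0.92) was also called higher and br (-0.89) lower, where the other probe sets of br read from -0.29 to 0.41. After GFP dsRNA yki (0.53) and puc (0.76) were called higher. The calls of Jra, EcR, br, yki and puc each ended without at least 1 array. EcR had 1.26 without the first DENR dsRNA total array and 0.58 without the second.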
